A study of Mus musculus with 12 samples.

Results

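Igf2, H19, Ascl2, Kcnq1ot1, Cdkn1c, Slc22a18 and Phlda2 are 7 genes of an imprinted stretch of distal mouse chromosome 7, chosen by symbol as the best-known members of its paired imprinted domains. The choice was made with earlier results of these data known, so counts of calls among the 7 are a description. All 7 were found among the 35976 symbols of the count table, and all 7 were among the 16014 genes tested. They were followed in 12 RNA-seq libraries of V6.5 cells, a male hybrid mouse embryonic stem (ES) cell line grown on gelatin with serum, LIF, the GSK3 inhibitor CHIR99021 and the MEK inhibitor PD0325901. The study asked what TET2 carrying the leukaemia-derived change N1300T does in cells without Tet1. By their genotype labels all 4 groups lack Tet1, and each holds 3 libraries lettered A, B and C with no further treatment. Tet1KO carries the Tet1 knockout with no change of Tet2 named. DKO, numbered 41, has Tet1 and Tet2 both knocked out, and the preparations called N1300T 49 and N1300T 81 here share the label of a Tet1 knockout with Tet2 N1300T. The labels do not say what the numbers stand for, whether each is 1 clone or whether letters mark separate cultures, so a p-value here reflects only how far these libraries vary, which may be technical. With 1 set of 3 libraries for Tet1KO and 1 for DKO, genotype and other properties of those cells cannot be told apart.

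An imprinted gene is transcribed mainly from the copy inherited from 1 parent, and a differentially methylated control region marks which copy that is. In the first domain the insulin-like growth factor Igf2 is active on the paternal copy and the growth-restraining non-coding RNA H19 on the maternal copy, and the unmethylated maternal control region binds CTCF, which keeps enhancers from Igf2. In the second domain the long non-coding RNA Kcnq1ot1 is made from the unmethylated paternal copy and silences neighbours in cis, leaving Cdkn1c, Slc22a18, Phlda2 and Ascl2 maternally active, several of them most strictly in placenta. The counts sum both parental copies and hold no methylation, so neither the imprint nor the parent of origin was measured.

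On mm10 (GRCm38.p6, RefSeq positions, chromosome 7) the genes run in the order H19 (142575530 to 142578146), Igf2 (142650768 to 142666816), Ascl2 (142966822 to 142969264), Kcnq1ot1 (143213111 to 143296547), Cdkn1c (143458339 to 143461059), Slc22a18 (143473726 to 143499334) and Phlda2 (143501545 to 143503145). All lie on the minus strand except Slc22a18. RefSeq gives Phlda2 more than 1 transcript, so the window before the start printed here lies inside its span. The stretches of 250 bases before RefSeq transcript starts are shown here for Igf2 and Phlda2, the genes called lower in DKO and N1300T, and for Kcnq1ot1, whose start lies in the control region of its domain. CG dinucleotides, the sites that DNA methylation and TET enzymes act on, are in capitals. In order, the windows are chr7:142657497-142657746, chr7:143502525-143502774 and chr7:143296548-143296797, all minus strand and printed 5′ to 3′.
Igf2: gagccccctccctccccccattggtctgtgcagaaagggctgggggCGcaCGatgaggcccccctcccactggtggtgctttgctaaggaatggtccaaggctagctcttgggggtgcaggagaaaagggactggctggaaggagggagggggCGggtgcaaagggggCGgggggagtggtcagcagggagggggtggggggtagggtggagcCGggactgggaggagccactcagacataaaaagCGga
Phlda2: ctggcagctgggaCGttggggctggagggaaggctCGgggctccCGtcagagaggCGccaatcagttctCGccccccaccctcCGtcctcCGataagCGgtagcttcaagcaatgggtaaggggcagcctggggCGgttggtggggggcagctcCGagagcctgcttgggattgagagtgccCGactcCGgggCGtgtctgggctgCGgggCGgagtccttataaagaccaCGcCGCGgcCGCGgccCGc
Kcnq1ot1: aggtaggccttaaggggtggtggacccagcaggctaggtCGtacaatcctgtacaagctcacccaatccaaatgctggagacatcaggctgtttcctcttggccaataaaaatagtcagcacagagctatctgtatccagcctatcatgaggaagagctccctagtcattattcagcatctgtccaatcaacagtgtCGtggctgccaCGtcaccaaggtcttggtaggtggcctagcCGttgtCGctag

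The Igf2 window, before 1 of 4 RefSeq starts with a window, holds 6 CGs and stands at the median of 6 over 32851 such windows of 27025 genes. Phlda2 holds 21, a number reached by 16.4% of those windows, and also the letters TATAAA close to its 3′ end, which 12.4% of windows hold. Kcnq1ot1 holds 5 CGs and 3 copies of CCAAT, counting both strands, and 33.9% of windows hold at least 1 copy. The printed windows of Igf2 and Phlda2 hold 1 copy each. The other windows of Igf2 hold 1, 10 and 22 CGs, that of Ascl2 holds 19 with 3 copies of CCAAT, and that of Slc22a18 holds none. TGCCGC, searched on both strands, is in no window of these genes and in 8.68% of all windows.

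H19 also carries a microRNA, miR-675, in its transcript. Its mature forms are shown as the product best known for linking H19 to growth, from RefSeq on GRCm38.p6, with the seed (bases 2 to 8) in capitals.
miR-675-5p: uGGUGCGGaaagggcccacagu
miR-675-3p: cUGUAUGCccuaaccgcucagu
The 2 arms have different seeds, and the precursor gene Mir675 was listed at 0 counts in every library of this RNA-seq, which was not designed to capture mature microRNAs.

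Library totals ran from 31515011 to 57054862 counts, of which the 7 genes together took 1315 to 2897 counts a library. As a check of the labelled cell type, all 8 ES cell markers were well above the filter, with a summed level of 5930 to 6974 CPM (counts scaled to a common library size after TMM) in every library. By group the sum was 6616 to 6671 CPM in Tet1KO and 5930 to 6411 CPM in DKO, the lowest group. It was 6669 to 6974 CPM in N1300T 49 and 6454 to 6849 CPM in N1300T 81. Against Tet1KO, 1 of the 8 was called lower in DKO and 0 in N1300T (12.5% and 0% beside 15.0% and 15.7% of all genes). Of 10 trophoblast markers 6 were tested, with a summed level of 73.5 to 99.7 CPM, and Tpbpa and Prl3d1, which mark mature trophoblast, were at 0 everywhere. Primitive endoderm markers (7 of 8 tested, Afp at 0) summed to 4.96 to 5.74 CPM in Tet1KO and to 8.31 to 13.1 CPM elsewhere. Against Tet1KO, 2 were called higher in DKO and 4 in N1300T (28.6% and 57.1% of those tested). Of all genes tested, 15.0% and 15.7% were called in these comparisons. Fibroblast markers (4 of 8 tested, 7.57 to 8.06 CPM in Tet1KO and 9.38 to 12.8 CPM elsewhere) had 2 and 1 called higher. Neuroectoderm markers (3 of 5 tested, 36.9 to 38.9 CPM in Tet1KO and 40.2 to 47.4 CPM elsewhere) had 1 and 2 called higher. With so few genes tested, such counts say little beside the shares of all genes. Most of the neuroectoderm sum was Nes (33.96 ± 1.34 CPM in Tet1KO, SD). Sox1 had lower means in N1300T 49 (2.55 ± 0.83 CPM) and N1300T 81 (2.15 ± 1.57 CPM) than in Tet1KO (3.94 ± 1.24 CPM). These 3 sums were thus lowest in Tet1KO, the group from which Igf2 and Phlda2 fell. The trophoblast sum was not (76.1 to 85.9 CPM in Tet1KO and 73.5 to 85.0 CPM in N1300T 49). Of its markers 2 were called higher in DKO, and 2 higher and 1 lower in N1300T. Nor was the mesoderm sum lowest in Tet1KO (6 of 7 tested, 73.5 to 86.3 CPM, against 68.25 to 82.55 CPM in N1300T 81). Here 2 were called higher and 1 lower in both comparisons. The part of any of these markers in the results was not tested. In bulk RNA, fewer cells making a transcript and less of it per cell cannot be told apart.

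Per kilobase of exon (GENCODE M21), the genes covered a wide range of abundance. In Tet1KO, Phlda2 had the highest level (20.25 ± 0.927 CPM per kb, SD, n = 3), followed by H19 (5.36 ± 0.232), Slc22a18 (2.39 ± 0.160), Cdkn1c (2.28 ± 0.477), Ascl2 (1.61 ± 0.510), Igf2 (1.35 ± 0.335) and Kcnq1ot1 (0.0477 ± 0.00969). The levels of Slc22a18 and Cdkn1c lay within their spread, as did those of Ascl2 and Igf2. In N1300T 81, H19 (8.55 ± 0.879 CPM per kb) came closer to Phlda2 (10.8 ± 1.12) and Igf2 was lower still (0.295 ± 0.0414). Kcnq1ot1 is a long, mostly unspliced RNA, so its low level per kb rests on an exon length of 93092 bases.

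**Figure D1:**
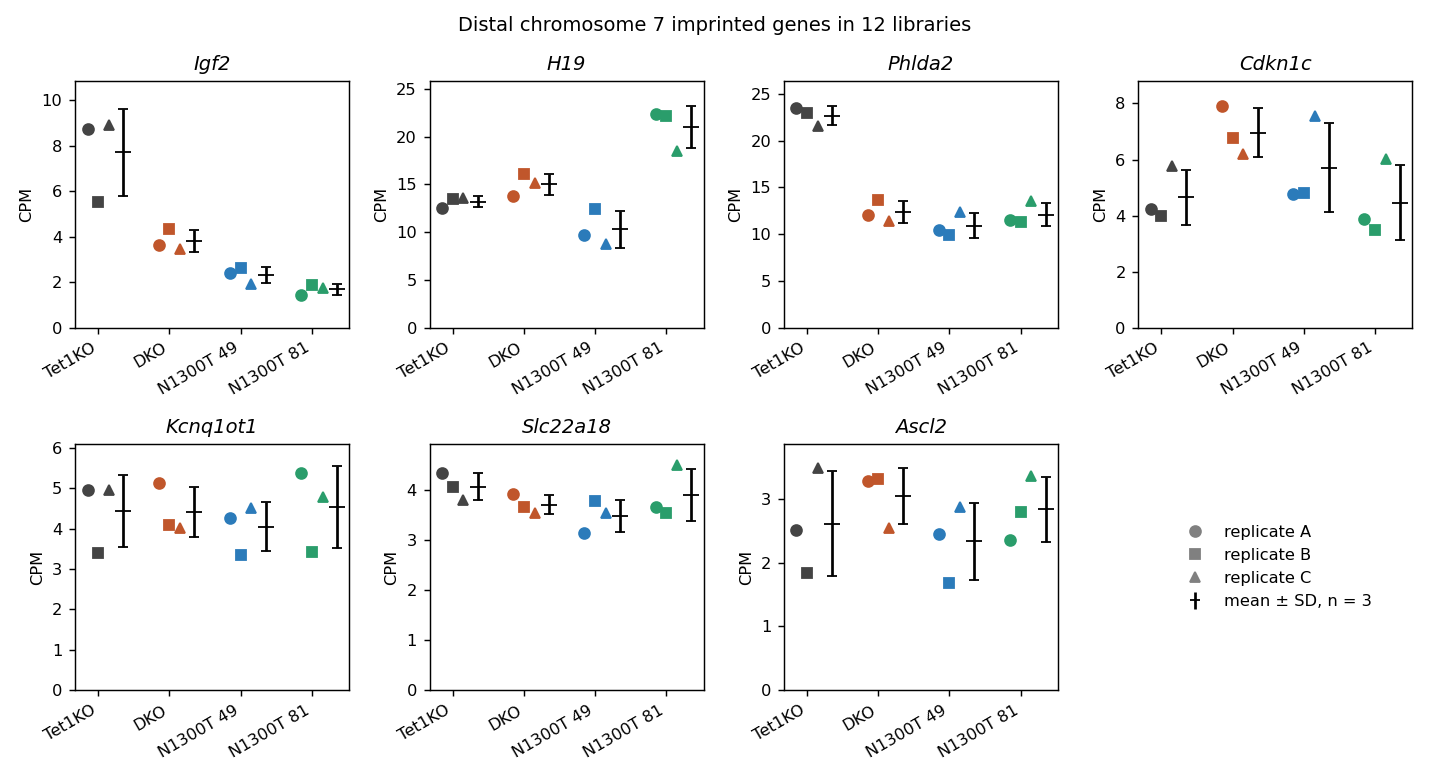
CPM of each of the 7 genes (y axis, linear from 0, scale differing between panels) in the 4 groups of 3 libraries (x axis), with replicates as symbols and mean ± SD beside them. Igf2 is highest in Tet1KO and lowest in N1300T 81, H19 is highest in N1300T 81, Phlda2 is near 22.7 CPM in Tet1KO and between 9.94 and 13.7 CPM in the other 9 libraries, and the other 4 genes vary less between groups, with Cdkn1c higher in all DKO than in all Tet1KO libraries.

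In the comparison of DKO with Tet1KO, which removes Tet2 on a Tet1-deficient background, Igf2 and Phlda2 fell and the other 5 genes were not called (adjusted p under 0.05, Benjamini-Hochberg over all genes, edgeR's quasi-likelihood test). Of all genes tested 15.0% were called in this comparison, and 7.12% were called lower. Against these shares, 2 of the 7 were called, both lower, and the median of the 7 log2 fold changes (0.00) was next to that of all genes (-0.01). In N1300T against Tet1KO, where both preparations together form the N1300T mean, the same 2 genes fell, with 15.7% of all genes called and 8.04% called lower. Both comparisons share the Tet1KO libraries, so they do not repeat each other independently.

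Igf2, the growth factor ligand that acts through the IGF1 and insulin receptors, was counted at 8.71, 5.50 and 8.92 CPM in Tet1KO A, B and C. In DKO it stood at 3.65, 4.33 and 3.44 CPM. In N1300T 49 it stood at 2.38, 2.60 and 1.93 CPM and in N1300T 81 at 1.42, 1.88 and 1.76 CPM. All Tet1KO libraries lay above all DKO libraries and all DKO libraries above all 6 N1300T libraries, while the lowest library of N1300T 49 (1.93 CPM) was just above the highest of N1300T 81 (1.88 CPM). Tet1KO B was the low library of its group, and the counts behind these levels ran from 61 to 376.

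Igf2 fell by 1.02 on the log2 scale in DKO (SE 0.18, adjusted p 0.000975), to 0.493 of its Tet1KO level, and by 1.96 in N1300T (SE 0.16, adjusted p 2.43e-07), to 0.257 of that level. Each preparation alone gave this direction against Tet1KO, by -1.73 ± 0.19 in N1300T 49 (adjusted p 1.48e-05) and -2.19 ± 0.19 in N1300T 81 (adjusted p 1.17e-06). Those 2 comparisons called 10.9% and 12.2% of all genes.

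N1300T differs from DKO in carrying a mutant Tet2 in place of none, and here Igf2 was the only one of the 7 genes called. It lay lower in N1300T by -0.94 ± 0.16 (adjusted p 0.00437), a comparison in which 3.73% of all genes were called. Taken singly, N1300T 81 was below DKO (-1.17 ± 0.20, adjusted p 0.00392), whereas N1300T 49 missed the threshold (-0.71 ± 0.19, adjusted p 0.0650). Those comparisons called 2.37% and 2.29% of all genes. The direct difference between N1300T 49 and N1300T 81 in Igf2 was 0.46 (95% interval 0.02 to 0.89, adjusted p 0.636), which does not separate the preparations. The order of mean Igf2 levels was therefore Tet1KO, DKO, N1300T 49 and N1300T 81. In the main fit, neither DKO and N1300T 49 nor the last pair were told apart at the threshold. For DKO and N1300T 49 the call turned with the settings, since Igf2 passed with no low-count filter (adjusted p 0.00321), DESeq2 (0.0200), the replicate block (0.0326), only the compared groups (0.0252) or without Tet1KO B (0.0314).

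H19, the non-coding RNA whose promoter shares enhancers with Igf2, stood at 12.5, 13.4 and 13.6 CPM in Tet1KO A, B and C and at 13.8, 16.1 and 15.1 CPM in DKO. It stood at 9.67, 12.5 and 8.76 CPM in N1300T 49. In N1300T 81 it stood at 22.3, 22.2 and 18.5 CPM. The 3 libraries of N1300T 81 were above every other library, and those of N1300T 49 were below every library of DKO, of N1300T 81 and of Tet1KO.

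Between the preparations, H19 was the only one of the 7 genes called, lower in N1300T 49 than in N1300T 81 by -1.03 ± 0.12 on the log2 scale (adjusted p 0.000131), at 0.49 of its level. The comparison called 58 genes, 0.362% of those tested. Against Tet1KO, H19 rose in N1300T 81 (0.67 ± 0.12, adjusted p 0.000909) and missed the threshold in N1300T 49 (-0.36 ± 0.12, adjusted p 0.0662), where it passed with no low-count filter (0.0202), DESeq2 (0.0409), the replicate block (0.0200) or without N1300T 49 B or N1300T 81 C (0.00998 and 0.0495). Against DKO it was higher in N1300T 81 (0.49 ± 0.11, adjusted p 0.0300) and lower in N1300T 49 (-0.54 ± 0.12, adjusted p 0.0263), and the first call was lost without any 1 of the DKO libraries, N1300T 81 A or N1300T 81 B, the second without any 1 of the DKO libraries, N1300T 49 A or N1300T 49 C. The mean of both preparations differed from Tet1KO by 0.16 (95% interval -0.06 to 0.37, adjusted p 0.328), a value that averages opposite signs and describes neither preparation. H19 levels ran from N1300T 81 through DKO and Tet1KO to N1300T 49, and DKO was not separated from Tet1KO (0.18, 95% interval -0.06 to 0.43, adjusted p 0.318).

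**Figure D2:**
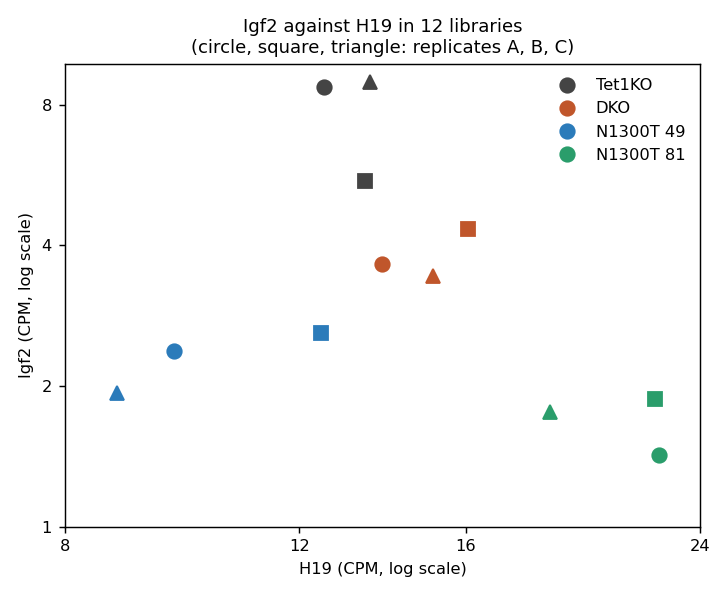
Igf2 (y axis) against H19 (x axis), both in CPM on log scales, 1 symbol per library and 1 colour per group. Tet1KO lies at the top, N1300T 49 at the lower left with H19 at 8.76 to 12.5 CPM and N1300T 81 at the lower right with H19 at 18.5 to 22.3 CPM, so the preparations share low Igf2 and differ in H19.

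The count of Igf2 per count of H19 in the same library does not depend on how libraries are scaled. It was 0.696, 0.409 and 0.657 in Tet1KO A, B and C and 0.263, 0.270 and 0.227 in DKO. It was 0.246, 0.209 and 0.220 in N1300T 49 and 0.0636, 0.0846 and 0.0949 in N1300T 81. Tet1KO was above all other libraries and N1300T 81 below all others, while the values of DKO and N1300T 49 overlapped. DKO and N1300T 49 thus had like ratios at different levels, with both mean CPM values higher in DKO.

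The log2 ratio differed among the 4 groups in an exact permutation test (F = 54.67, exact p 0.00013, adjusted over 10 ratio tests 0.0013). N1300T differed from Tet1KO by -2.09 on the log2 scale (two-sided exact p 0.0238, adjusted 0.119), where 0.0119 is the smallest p that 6 against 3 libraries can give. N1300T against DKO gave -0.91 (exact p 0.0833). DKO against Tet1KO (-1.18) and N1300T 49 against N1300T 81 (1.49) each gave an exact p of 0.1, the smallest possible for 3 against 3. Of the pairs of groups none passed after adjustment.

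Phlda2, which encodes a small pleckstrin-homology protein that restrains placental growth, stood at 23.6, 23.0 and 21.5 CPM in Tet1KO A, B and C. In DKO it stood at 12.1, 13.7 and 11.4 CPM. N1300T 49 gave 10.4, 9.94 and 12.4 CPM and N1300T 81 gave 11.5, 11.3 and 13.5 CPM. Every Tet1KO library was above every other library by a wide gap, and the remaining 3 groups overlapped.

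The fall of Phlda2 was -0.88 ± 0.10 in DKO (adjusted p 2.69e-05) and -0.98 ± 0.09 in N1300T (adjusted p 9.88e-07), to 0.545 and 0.506 of the Tet1KO level. N1300T 49 (-1.06 ± 0.11) and N1300T 81 (-0.91 ± 0.10) each gave the call against Tet1KO. N1300T did not differ from DKO beyond the error (-0.11, 95% interval -0.30 to 0.09, adjusted p 0.567), an interval narrower than the fall itself. Unlike Igf2, where N1300T lay below DKO, Phlda2 thus showed a single step between Tet1KO and the remaining groups.

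Cdkn1c, the cyclin-dependent kinase inhibitor p57, stood at 4.22, 3.97 and 5.77 CPM in Tet1KO A, B and C and at 7.91, 6.76 and 6.21 CPM in DKO. It stood at 4.76, 4.82 and 7.56 CPM in N1300T 49 and at 3.89, 3.49 and 6.0 CPM in N1300T 81. All DKO libraries were above all Tet1KO libraries and above those of N1300T 81, while N1300T 49 overlapped both, and in Tet1KO and both N1300T preparations library C was the highest.

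Cdkn1c missed the threshold in DKO against Tet1KO (0.58, 95% interval 0.13 to 1.02, adjusted p 0.0752) and in N1300T against DKO (-0.47, 95% interval -0.85 to -0.10, adjusted p 0.141). It passed in DKO against Tet1KO without library C of Tet1KO, N1300T 49 or N1300T 81 (adjusted p 0.0323, 0.0472 and 0.0330), with a replicate block (0.0105), without the low-count filter (0.00185) and with only the compared groups fitted (0.0148). N1300T against Tet1KO gave 0.11 (95% interval -0.29 to 0.50). N1300T against DKO passed without library C of N1300T 49 or N1300T 81 (0.0468 and 0.0264), with the block (0.0221) and without the filter (0.00505). Both calls on Cdkn1c thus changed with these settings, while the log2 fold change ran from 0.47 to 0.77 and from -0.61 to -0.37 over the alternatives.

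Kcnq1ot1, the RNA that silences the second domain in cis, stood at 4.96, 3.40 and 4.96 CPM in Tet1KO A, B and C and at 5.12, 4.09 and 4.02 CPM in DKO. It stood at 4.27, 3.36 and 4.52 CPM in N1300T 49 and at 5.39, 3.42 and 4.79 CPM in N1300T 81. The 4 groups overlapped throughout, and library B was the lowest in Tet1KO and in both N1300T preparations. DKO against Tet1KO gave 0.00 (95% interval -0.40 to 0.40) and N1300T against Tet1KO -0.05 (-0.40 to 0.30), so changes of Kcnq1ot1 smaller than these bounds could not be seen here.

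The count of Cdkn1c per count of Kcnq1ot1 was 1.54, 1.65 and 1.55 in DKO A, B and C and 0.850, 1.17 and 1.16 in Tet1KO. It was 1.11, 1.44 and 1.67 in N1300T 49 and 0.722, 1.02 and 1.25 in N1300T 81. DKO was above Tet1KO and N1300T 81 in every library, and N1300T 49 overlapped all other groups. The difference among the 4 groups was F = 4.07 (exact p 0.0570, adjusted 0.143) and that of DKO from Tet1KO was 0.59 on the log2 scale (exact p 0.1, the smallest possible). No test of this ratio, among the 4 groups or between pairs of them, passed after adjustment.

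Slc22a18, a transporter of the organic cation family, stood at 4.34, 4.04 and 3.80 CPM in Tet1KO A, B and C and at 3.90, 3.65 and 3.54 CPM in DKO. N1300T 49 gave 3.13, 3.76 and 3.54 CPM and N1300T 81 gave 3.65, 3.53 and 4.48 CPM. Tet1KO lay just above N1300T 49, all other pairs of groups overlapped, and Slc22a18 had the narrowest range of the 7 genes. Its 95% intervals were -0.42 to 0.16 for DKO and -0.40 to 0.11 for N1300T, both against Tet1KO. Slc22a18 lies next to Phlda2, which fell in the same comparisons.

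Ascl2, a basic helix-loop-helix factor of trophoblast and of intestinal stem cells, where it answers to Wnt signalling, stood at 2.51, 1.84 and 3.49 CPM in Tet1KO A, B and C. DKO gave 3.28, 3.31 and 2.54 CPM, N1300T 49 gave 2.44, 1.68 and 2.88 CPM and N1300T 81 gave 2.35, 2.80 and 3.36 CPM. The groups overlapped, and the spread within Tet1KO was as wide as that across all 4 groups but for N1300T 49 B. Its 95% intervals were the widest of the 7 genes in these comparisons, at -0.27 to 0.71 for DKO and -0.46 to 0.41 for N1300T, both against Tet1KO.

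**Figure D3:**
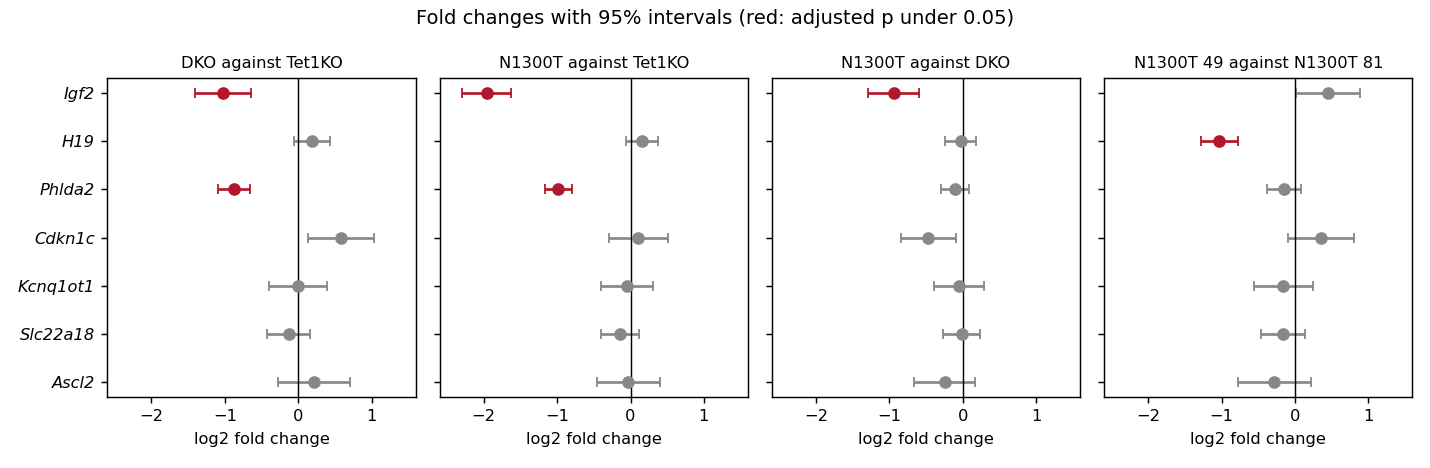
Log2 fold changes (x axis) of the 7 genes (y axis) with 95% intervals in the 4 main comparisons, red where the adjusted p is under 0.05. Igf2 is red in the first 3 panels, Phlda2 in the first 2 and H19 only between the N1300T preparations, while Cdkn1c has intervals that leave out 0 in 2 panels without passing the adjusted threshold.

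The surrounding stretch from Ctsd to Dhcr7 holds 50 annotated genes, of which 43 were in the table and 22 were tested, among them 15 besides the 7 described. In DKO against Tet1KO 1 of the 15 was called higher and 4 lower, and in N1300T against Tet1KO 1 higher and 3 lower, which is 33.3% and 26.7% beside 15.0% and 15.7% of all genes. N1300T against DKO and N1300T 49 against N1300T 81 called none of the 15 in edgeR. Each had 3 of the 15 at an unadjusted p under 0.05, and DESeq2 called 1 (Mrpl23) and 0. Of all genes, edgeR called 3.73% and 0.362% in these comparisons, so a count of 0 among 15 is near the background. Tnfrsf23, a decoy receptor for TRAIL, rose by 1.13 ± 0.34 in DKO and 1.18 ± 0.31 in N1300T. Dhcr7, the enzyme of the last step of cholesterol synthesis, fell (-0.58 ± 0.08 and -0.41 ± 0.07), and the tRNA synthetase gene Cars was lower by -0.22 in each (SE 0.07 and 0.06). Mrpl23, a mitochondrial ribosomal protein gene on the far side of H19, fell in DKO (-0.26 ± 0.08) and was not called in N1300T (-0.03 ± 0.07). Against Tet1KO the 15 had a median of -0.16 in DKO and -0.03 in N1300T, beside -0.005 and 0.002 for all genes. The 1203 tested genes of chromosome 7 had medians of 0.01 and 0.04 in the same comparisons, so the chromosome as a whole was level. The chromosome median does not describe the stretch itself.

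Directly beside the fallen genes the picture was mixed. Igf2os, which overlaps Igf2 on the opposite strand, had counts of 9, 10 and 14 in Tet1KO A, B and C and 5, 0 and 3 in DKO. Its counts were 11, 4 and 3 in N1300T 49 and 3, 0 and 2 in N1300T 81. It fell in DKO (-2.43 ± 0.70, adjusted p 0.0260) and in N1300T (-1.95 ± 0.58, adjusted p 0.0287), both against Tet1KO, on very few counts, and DESeq2 gave no adjusted p for the first and did not call the second. Taken singly, N1300T 81 was called against Tet1KO (-2.98 ± 0.76, adjusted p 0.0155) and N1300T 49 was not (-0.91 ± 0.62, adjusted p 0.387), and their difference of 2.06 ± 0.83 did not pass (adjusted p 0.582). Whether counting used strand is not given, so its reads and those of Igf2 cannot be told apart. Nap1l4, a histone chaperone gene on the other side of Phlda2 from Slc22a18, gave -0.09 ± 0.05 in DKO and -0.01 ± 0.04 in N1300T, neither called, and Tssc4, between Ascl2 and Kcnq1ot1, gave 0.07 ± 0.08 and 0.20 ± 0.07, neither called. Ins2 and the microRNA gene Mir483 had no count in any library, and Kcnq1, the potassium channel gene that Kcnq1ot1 runs against, had 0 to 6 counts a library.

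**Figure D4:**
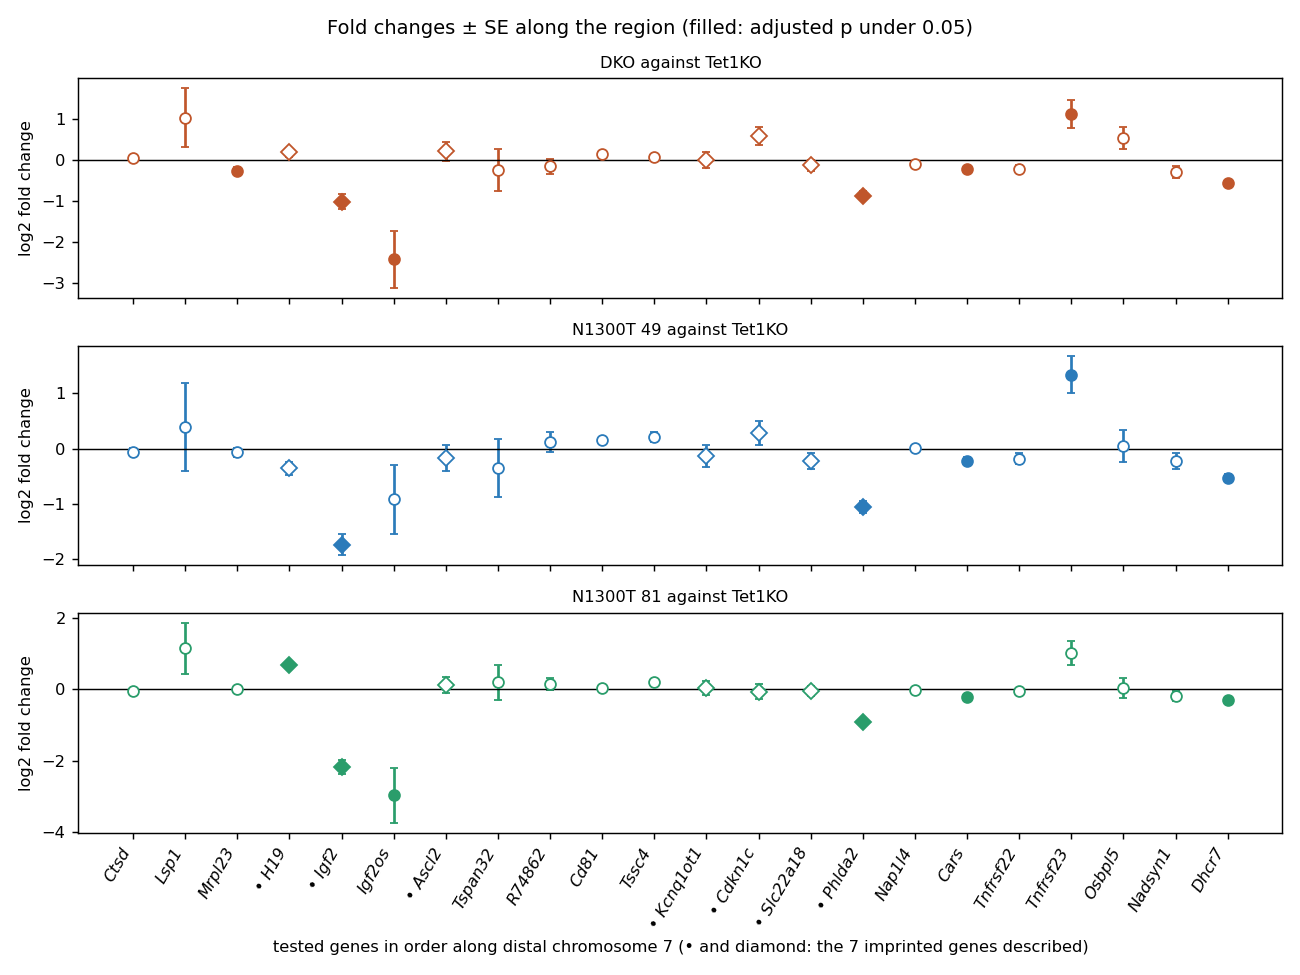
Log2 fold change ± SE (y axis) of the 22 tested genes in their order along distal chromosome 7 (x axis, evenly spaced), for DKO and each N1300T preparation against Tet1KO, with diamonds for the 7 genes described and filled symbols where the adjusted p is under 0.05. Igf2 and Phlda2 are filled below 0 in all 3 panels with the genes from Ascl2 to Slc22a18 between them unfilled, and H19 is filled above 0 only for N1300T 81.

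Among 46 tested imprinted genes elsewhere in the genome, 7 were called higher and 8 lower in DKO against Tet1KO, and 6 higher and 12 lower in N1300T against Tet1KO, or 32.6% and 39.1% beside 15.0% and 15.7% of all genes. N1300T against DKO called 3 higher and 9 lower, and N1300T 49 against N1300T 81 called 1 higher and 3 lower (26.1% and 8.70% beside 3.73% and 0.362% of all genes), with list medians between -0.10 and 0.05 in all 4 comparisons. Plagl1, a zinc finger factor known in mouse to act on the H19 and Igf2 locus, was lower in N1300T than in DKO (-1.35 ± 0.09), as was Zdbf2 (-1.15 ± 0.06), while H13 (0.86 ± 0.06) and Peg13 (4.50 ± 0.38, from 0.0673 ± 0.0316 CPM in DKO) were higher. Plagl1 stood at 107 ± 14.1 CPM in Tet1KO and 140 ± 3.20 CPM in DKO. It stood at 53.1 ± 6.87 CPM in N1300T 49 and 57.4 ± 8.30 CPM in N1300T 81. Its mean was thus highest in DKO, unlike that of Igf2, and close in the preparations, unlike that of H19. A part of Plagl1 in either gene's level was not tested. Between the preparations Grb10, an adaptor that restrains insulin and IGF receptor signalling, was higher in N1300T 49 (0.96 ± 0.12), and the splicing factor copy Zrsr1 was lower (-0.94 ± 0.08), as H19 was. Their levels were 85.0 ± 10.9 CPM against 43.6 ± 6.70 CPM for Grb10 and 15.3 ± 1.46 CPM against 29.3 ± 2.43 CPM for Zrsr1 (n = 3 each).

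Of 27 tested genes that set, read or keep imprints, 1 was called higher and 3 lower in DKO against Tet1KO, and 3 higher and 4 lower in N1300T against Tet1KO. These are 14.8% and 25.9% of the list beside 15.0% and 15.7% of all genes, so the DKO count is at the background. Dnmt3a, a de novo methyltransferase, fell in both (-0.79 ± 0.08 in DKO and -0.63 ± 0.07 in N1300T), and its partner Dnmt3b rose in DKO (0.48 ± 0.11). Uhrf1, which guides maintenance methylation, was lower (-0.25 ± 0.06 and -0.23 ± 0.05), as was Ezh2, the Polycomb methyltransferase (-0.30 ± 0.06 and -0.35 ± 0.05). Of the 27 none was called by edgeR between N1300T and DKO, where Igf2 was, with 7 at an unadjusted p under 0.05 and 3 called by DESeq2 (Smchd1, Dnmt3b and Naa10). Between the preparations, where H19 was called, edgeR and DESeq2 called none of the 27 and 1 had an unadjusted p under 0.05. With 3.73% and 0.362% of all genes called in these 2 comparisons, a count of 0 among 27 is near the background.

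In the pathway that Igf2 feeds, 23 genes were tested, of which 4 rose and 1 fell in DKO and 2 rose and 1 fell in N1300T, both against Tet1KO. These are 21.7% and 13% of the list beside 15.0% and 15.7% of all genes, so neither stands far from the background. Irs1, a docking protein of the IGF1 receptor, rose by 0.88 ± 0.23 in DKO and 0.71 ± 0.21 in N1300T. Igf2bp3, an RNA-binding protein of Igf2 messenger RNA, fell in DKO (-0.31 ± 0.08), and Ide, a protease of insulin and IGF2, fell in N1300T (-0.27 ± 0.06). N1300T against DKO called 1 higher, Igfbp2 (0.61 ± 0.14), and 2 lower, Grb10 (-0.85 ± 0.10) and Foxo1 (-0.23 ± 0.06), and between the preparations Grb10 alone was called. These are 13% and 4.35% of the list beside 3.73% and 0.362% of all genes.

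Of 19 tested Wnt targets, the class to which Ascl2 belongs in intestine, 10 rose and 2 fell in DKO and 7 rose and 2 fell in N1300T, both against Tet1KO (63.2% and 47.4% beside 15.0% and 15.7% of all genes), with list medians of 0.34 and 0.23. Lef1 rose by 1.67 ± 0.11 and 1.56 ± 0.10 and Tnfrsf19 by 0.97 ± 0.09 and 0.87 ± 0.08, whereas Ascl2 gave 0.22 ± 0.23 and -0.03 ± 0.21 and was not called. Of 8 tested CDK inhibitors and PHLDA genes besides Cdkn1c and Phlda2, 4 rose in DKO and 3 in N1300T against Tet1KO, or 50% and 37.5% beside those same shares. Cdkn2a rose by 1.25 ± 0.12 and 1.56 ± 0.11, Cdkn2b by 1.32 ± 0.19 and 1.02 ± 0.17, and Phlda3 by 0.57 ± 0.14 and 0.47 ± 0.13. Phlda3 thus moved opposite to Phlda2 in these comparisons with Tet1KO. In N1300T against DKO 1 of the 8 was called, Phlda1, which was lower in N1300T (-0.51 ± 0.14, adjusted p 0.0488). That is 12.5% of the list beside 3.73% of all genes.

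The genes whose log2 CPM followed each of the 7 most closely over the 12 libraries were ranked by Pearson's r, as a description, since libraries of a group share their level. For Igf2 they were Itgb1 (0.957), Me1 (0.949) and Hydin (0.949), and for Phlda2 Ap3m2 (0.974), H2afy2 (0.966) and Cds2 (0.964). Within groups, after the group means were taken out, r fell to between -0.09 and 0.54 for the first set and between 0.50 and 0.58 for the second, so most of the likeness lay in the group means. For H19 they were Lonrf1 (0.934), Ppp1r26 (0.895) and Prrc1 (0.890), with 0.67 to 0.77 within groups. Cdkn1c was most like Cyp1b1 (0.964), Cited1 (0.964) and Bmp8a (0.963), and r stayed at 0.977, 0.948 and 0.957 within groups, so this likeness did not lie in the group means alone. Ascl2 was likewise close to Blvrb (0.934, and 0.952 within groups), Tspyl3 (0.907 and 0.901) and Fgf18 (0.890 and 0.915). Kcnq1ot1 (Npas3, Gm31323 and H2-T24) and Slc22a18 (Ezr, Ybx1 and Ttc13) reached 0.820 to 0.872. Within groups r was 0.885, 0.859 and 0.878 for the 3 genes of Kcnq1ot1 and 0.927, 0.790 and 0.706 for those of Slc22a18.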

How the data were processed

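Paired-end RNA-seq of 12 libraries was used as the authors deposited it, in 1 table of raw counts per gene symbol. The submitters' processing notes name mm10 as the build and DESeq2 as a tool, and the aligner, counter, annotation and strand setting were not given in sources used here. Values of 2 outnumbered values of 1 (20282 and 5990 in the table), so each mate may have been counted, and counting error is then understated.

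All 8 contrasts came from 1 fit of the 12 libraries in edgeR 4.0.16 (R 4.3.3) with TMM factors of 0.979 to 1.02, filterByExpr by group, 16014 genes, 8 residual degrees of freedom and 2-sided quasi-likelihood tests. N1300T is the equally weighted mean of both preparations, and errors of fold changes are SE. Log2 ratios of 2 genes took counts plus 0.5 and exact permutation tests in Python 3.11.15. The fit was tested on simulated data. The alternatives were RLE factors, library size alone, no low-count filter, DESeq2 1.42.0, a replicate block, only the compared groups, halved counts and leaving out each library.

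The 7 genes, the lists and the tests were chosen with earlier results of these data known. Named genes were the 7, up to 4 called genes a list and comparison by adjusted p, gene-order neighbours, and the 3 genes most like each of the 7 in log2 CPM (prior count 2). The list of CDK inhibitors and PHLDA genes followed the same limit, although the rule names only the other 5 lists. Libraries of the same letter in different groups had correlated deviations in 7 of 18 pairs (r over 0.1), with a range of -0.04 to 0.31, and every pair passed only for Tet1KO with N1300T 81. The main fit and the main ratio tests used no block for letters in any comparison, so pairing entered only the replicate-block alternative. Sequences and positions are RefSeq's.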

Additional observations from a re-analysis of the deposited data

Results flagged for a closer look

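H19 differed between the 2 preparations that share the N1300T genotype label, by -1.03 on the log2 scale for N1300T 49 against N1300T 81 (SE 0.12, adjusted p 0.000131 in edgeR's quasi-likelihood test), with all 3 libraries of N1300T 49 below all 3 of N1300T 81. This direct difference is also the test that its change from the shared Tet1KO libraries is unequal in the 2 preparations, at -0.36 in N1300T 49 and 0.67 in N1300T 81. The call held in all 19 alternatives, with values from -1.19 to -0.93.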

How the results depend on the processing

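The calls of Igf2 and Phlda2 against Tet1KO, of Igf2 in N1300T against DKO and of H19 between the preparations held in all 19 alternatives, and in these 4 main comparisons only Cdkn1c crossed the threshold (in 6 alternatives for DKO against Tet1KO and 4 for N1300T against DKO). For N1300T against DKO, all genes called numbered 1481 with no filter, 1100 with DESeq2 and 1497 with the replicate block, and 107 to 1053 leaving out 1 library. Between the preparations they numbered 244, 108 and 105 in the same 3 fits. Leaving out 1 library gave 1386 to 2575 genes for DKO and 1388 to 2575 for N1300T against Tet1KO, the lowest in both without Tet1KO A, with 1420 and 1402 for DKO without DKO A or C. Of the 7 genes, N1300T against DKO called 2 with no filter or the replicate block (Igf2 and Cdkn1c), and 1 to 2 leaving out 1 library. N1300T 49 against DKO called 2 with no filter, DESeq2, the block or only the compared groups (H19 and Igf2), and 0 to 2 leaving out 1 library, where the H19 call was lost without any 1 of the DKO libraries, N1300T 49 A or N1300T 49 C. N1300T 81 against DKO called 1 to 3, the H19 call being lost without any 1 of the DKO libraries, N1300T 81 A or N1300T 81 B. The block left N1300T 81 against Tet1KO, where every same-letter pair of libraries had r over 0.1, at 3 called genes. The Cdkn1c to Kcnq1ot1 log2 ratio of N1300T against Tet1KO, 0.15 and not called, ran from -0.0041 (without Tet1KO A) to 0.26. The cause of these changes was not tested.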
